A study of Rattus norvegicus with 8 samples.

Results

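The 10 genes described here mark the endothelium of the liver. Stab1, Stab2, Lyve1 and Clec4g belong to the sinusoidal endothelium, and Pecam1, Cdh5, Kdr, Vwf, Tek and Eng mark vessels more generally. Their probes were taken by symbol, as the array probes whose gene name equals one of these symbols. The rule uses no measured value, though the genes were picked with earlier results of these data known. Of the 10 symbols, 9 were found, on 10 of 30367 probes. Vwf had 2 probes. Stab1 was not analysed here. All 9 genes passed the filter on dim probes and stand among 17683 features tested, a feature being a gene or an unnamed probe.

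The arrays came from livers of 4 furan-treated and 4 control male Fisher 344 rats, an inbred strain, aged 18 weeks. Furan is a small volatile ring ether formed in heated food and oxidised in the liver to a reactive dialdehyde. Treated rats received 8 mg/kg for 90 days, on 5 days of each week, through a stomach tube. Animals of both groups were killed 24 h after the last treatment, and what the controls were given is not stated in the sources used here. The series title names the persistence of furan-induced epigenetic changes as its subject, and the comparison made here is furan-treated against control liver at this 1 time. Whole liver was used, so that fewer cells of a type and less RNA per cell cannot be told apart.

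Liver sinusoids are lined by a fenestrated endothelium without an organised basement membrane, which clears waste molecules from blood through scavenger receptors. Larger vessels have a continuous endothelium joined by VE-cadherin. Both kinds of cell respond to VEGF, angiopoietins and ligands of the TGF-beta family, and the sinusoidal cells in turn send Wnt, R-spondin and BMP signals to hepatocytes.

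Levels are log2 processed intensities minus the log2 75th percentile of the non-control spots of the same array, so that 0 is that percentile. Levels of different probes are not comparable. The 75th percentile lay between 1256 and 1596 intensity units on furan arrays and between 827 and 1057 on control arrays. Arrays 1 and 2 of each group lay on slide 1, and arrays 3 and 4 of each group on slide 2. Calls were made in limma where p, adjusted over all features, was below 0.05.

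The upstream sequences of 3 sinusoidal genes and of Eng are shown. They were chosen because these genes shared a low value in 1 control array, described below, and each holds a match to AGGAAG. That is 1 form of the core bound by ETS factors, a transcription factor family that includes Erg. Each sequence covers the 250 bases before the annotated start of the gene (RefSeq, build GRCr8), 5′ to 3′ on the gene's strand. Capitals mark AGGAAG or its reverse complement CTTCCT.
Stab2, chr7:23320563-23320812, minus strand: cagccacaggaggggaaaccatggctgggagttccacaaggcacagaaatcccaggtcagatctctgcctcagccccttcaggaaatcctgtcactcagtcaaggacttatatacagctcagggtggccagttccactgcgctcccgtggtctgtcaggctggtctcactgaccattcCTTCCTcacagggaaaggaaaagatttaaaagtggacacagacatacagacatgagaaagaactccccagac
Lyve1, chr1:174410978-174411227, minus strand: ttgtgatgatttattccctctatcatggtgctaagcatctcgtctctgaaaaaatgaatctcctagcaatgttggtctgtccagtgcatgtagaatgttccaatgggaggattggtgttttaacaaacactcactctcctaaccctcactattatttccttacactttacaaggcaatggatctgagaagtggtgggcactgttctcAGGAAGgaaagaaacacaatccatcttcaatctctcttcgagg
Clec4g, chr12:6582914-6583163, minus strand: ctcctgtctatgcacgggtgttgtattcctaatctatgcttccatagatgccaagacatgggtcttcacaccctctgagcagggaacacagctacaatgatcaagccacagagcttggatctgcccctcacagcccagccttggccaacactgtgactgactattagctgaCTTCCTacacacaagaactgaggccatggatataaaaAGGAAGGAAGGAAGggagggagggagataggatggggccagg
Eng, chr3:36332029-36332278, plus strand: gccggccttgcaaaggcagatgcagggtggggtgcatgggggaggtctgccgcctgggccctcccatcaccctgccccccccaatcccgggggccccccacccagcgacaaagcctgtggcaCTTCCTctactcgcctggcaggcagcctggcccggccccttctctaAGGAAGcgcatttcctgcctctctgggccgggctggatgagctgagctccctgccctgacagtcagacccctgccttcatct
The Clec4g sequence held 4 matches, 3 of which overlap, Eng held 2, and Stab2 and Lyve1 held 1 each. Promoters were at hand for 6 of the 10 genes, and those of Kdr and Stab1 held no match to AGGAAG or CTTCCT. Other forms of the ETS core were not searched, so these promoters may hold such forms. Kdr shared the low value too, at 3.68 times below the mean of the other controls, against 3.58 for Clec4g and 2.56 for Eng. Of 33469 promoters of the same length, 29.5% held at least 1 match. For GATA factors 1 form of the core was searched, AGATAA, or TTATCT on the other strand. This form was in none of the 6 and in 10.3% of all promoters, and other forms were not searched. These are matches of letters in 1 window and were not tested as binding sites.

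Probes of 3 genes are shown because they stand for the different patterns described below, with Clec4g for the sinusoidal genes, Tek for a receptor near the background, and Cdh5 for a gene that did not share the dip of 1 control array. Each is the array's probe of 60 bases, with its position on build rn4 as the scanner files give it.
Clec4g, chr12:2416879-2416938, plus strand: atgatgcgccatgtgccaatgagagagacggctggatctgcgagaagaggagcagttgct
Tek, chr5:115178576-115178635, plus strand: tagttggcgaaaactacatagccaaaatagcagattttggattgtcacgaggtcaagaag
Cdh5, chr19:779665-779724, minus strand: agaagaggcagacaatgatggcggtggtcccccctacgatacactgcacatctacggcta

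One control array stood apart in these genes. Control 1 was the lowest of the 8 arrays for 7 of the 9 members, all but Cdh5 and Vwf, whereas it was the lowest for 14.9% of all features. Against the mean of controls 2 to 4, it was 12.7 times lower for Lyve1, 6.25 times for Stab2, 3.68 times for Kdr and 3.58 times for Clec4g. The same ratio was 2.56 for Eng, 1.90 for Pecam1 and 1.40 for Vwf. Tek, not well above background on control 1, is given no ratio. In this array 73 features lay at least 4-fold below the lowest other control, and 13 of these were among the 137 tested genes of the endothelial lists. Each of the other 7 arrays had at most 9 features that far below its group, none of them in those lists. The 13 include Tek, and also Angpt2 (-8.89) and Bmp6 (-8.63), which were lower on control 1 than Tek (-7.71). How far such dim genes lay below the other controls is limited by the background. On the upper side, control 2 had 115 features and furan 1 had 75 at least 4-fold above the rest of their group, against 8 in control 1. The members' results and the counts over the endothelial lists are therefore given with and without control 1. Where a gene was lowest in control 1, leaving that array out necessarily makes its change more negative. It also narrows the control spread of such members, for Lyve1 from an SD of 1.84 to 0.21. Calls and adjusted p without control 1 rest on that choice, made from these same genes. The shares over all features beside them were not chosen in this way.

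With all 8 arrays, 0 of 9 members were called by limma, against 34.2% of all features called in either direction. At an unadjusted p below 0.05, 1 member passed (Cdh5), against 45.58% of all features. The members' median log2 change, furan minus control, was -0.25, and that of all features was -0.03. Without control 1, 5 of 9 members were called lower in furan livers (Lyve1, Clec4g, Pecam1, Kdr and Tek), against 13.5% of all features, and none higher, against 14.6%, with 28.2% called in either direction. All 9 changes were then below 0, as were 53.3% of all features, and their median was -0.72 against -0.05 over all features. In 7 of the 9 the furan arrays then lay wholly below the controls, as in 20.8% of all features, while 21% lay wholly above.

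**Figure D1:**
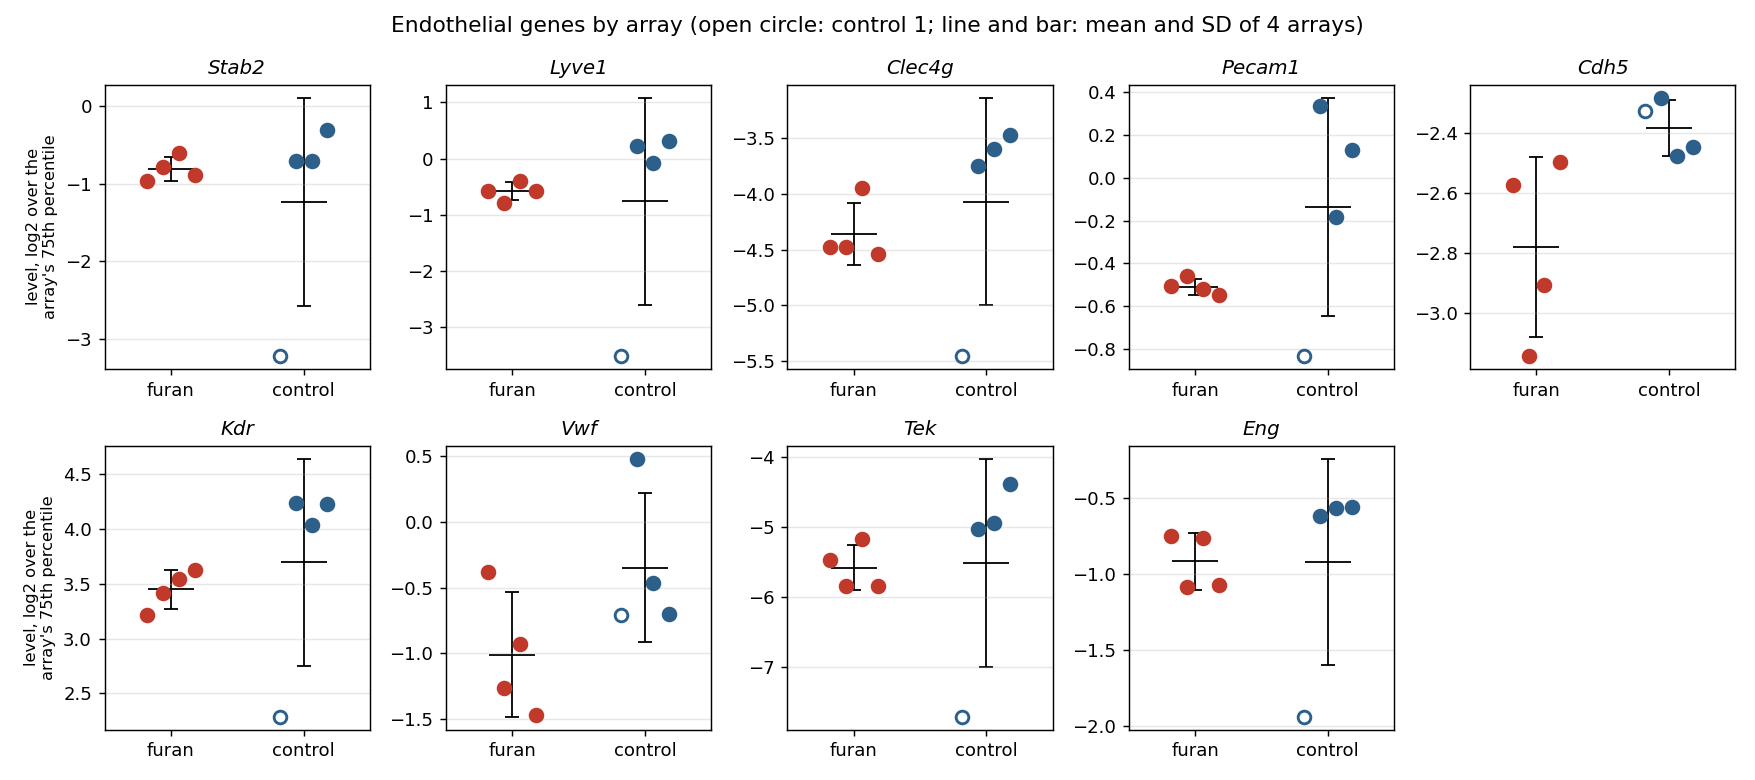
Level of each gene (log2 over the array's 75th percentile) on 4 furan and 4 control arrays, with control 1 as an open circle and the mean and SD of 4 arrays as a line and bar. Control 1 is the lowest array in 7 of 9 genes, and in 7 of 9 the furan arrays lie wholly below controls 2 to 4.

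The sinusoidal genes follow. Stab2, which encodes the hyaluronan-clearing scavenger receptor stabilin-2, had levels of -0.96, -0.78, -0.61 and -0.89 on the furan arrays and -3.21, -0.71, -0.70 and -0.31 on the control arrays. The furan arrays lay within the range of the controls, and controls 2 and 3 lay among them. The log2 change was 0.42 (95% interval -0.89 to 1.74, adjusted p = 0.602 in limma) and became -0.24 (-0.59 to 0.11, adjusted p = 0.267) without control 1.

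Lyve1, the hyaluronan receptor of sinusoidal and lymphatic endothelium, had levels of -0.58, -0.79, -0.39 and -0.57 in furan livers and -3.51, 0.22, -0.08 and 0.32 in control livers. All furan arrays lay below controls 2 to 4 and far above control 1. The log2 change of 0.18 (-1.62 to 1.98, adjusted p = 0.882) turned to -0.74 (-1.08 to -0.39, adjusted p = 0.0116) without control 1, which is 0.60 times the level of the other controls.

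Clec4g, the C-type lectin LSECtin, had levels of -4.48, -4.48, -3.95 and -4.54 in furan livers and -5.45, -3.75, -3.60 and -3.48 in control livers. Furan 3 was the nearest to the controls, and the furan arrays again lay between control 1 and the other controls. The log2 change was -0.29 (adjusted p = 0.623) with all arrays and -0.75 (-1.15 to -0.35, adjusted p = 0.0178) without control 1.

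Among the vessel genes, the 3 cell-surface receptors for growth factors had their lowest level in control 1. Kdr, the main signalling receptor for VEGF, had levels of 3.22, 3.42, 3.54 and 3.62 in furan livers and 2.29, 4.24, 4.04 and 4.22 in control livers. The 4 furan arrays lay in a narrow band below controls 2 to 4. Its log2 change was -0.25 (adjusted p = 0.675) and, without control 1, -0.72 (-1.03 to -0.41, adjusted p = 0.00955).

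Tek, the angiopoietin receptor Tie2, had levels of -5.48, -5.84, -5.17 and -5.84 in furan livers and -7.71, -5.03, -4.94 and -4.39 in control livers. Its probe was well above background on 4 furan arrays and on 3 control arrays, the exception being control 1. The log2 change was -0.06 (-1.55 to 1.42, adjusted p = 0.9497) and, without control 1, -0.80 (-1.33 to -0.26, adjusted p = 0.0371).

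Eng encodes endoglin, a co-receptor for BMP9 and other ligands of the TGF-beta family. Its levels were -0.75, -1.08, -0.76 and -1.07 in furan livers and -1.94, -0.62, -0.56 and -0.56 in control livers. Controls 2 to 4 lay close together, above all furan arrays. Its log2 change was 0.00 (adjusted p = 0.995) and, without control 1, -0.34 (-0.64 to -0.03), which was not called (adjusted p = 0.0928).

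The 2 junction proteins came next. Pecam1, the adhesion molecule CD31, had levels of -0.51, -0.46, -0.52 and -0.55 in furan livers and -0.83, 0.34, -0.19 and 0.13 in control livers. The furan arrays had an SD of 0.04, against 0.51 for the 4 controls. The log2 change was -0.37 (adjusted p = 0.244) and, without control 1, -0.61 (-0.94 to -0.27, adjusted p = 0.0189).

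Cdh5, VE-cadherin of the adherens junctions, had levels of -2.57, -3.14, -2.91 and -2.50 in furan livers and -2.33, -2.28, -2.48 and -2.45 in control livers. It was the 1 member whose groups did not overlap with all 8 arrays, as in 36.7% of all features (furan lower in 18% and higher in 18.8%), though furan 4 and control 3 were nearly equal. Control 1 lay within the range of the other controls. The log2 change of -0.40 (-0.75 to -0.04) was not called (adjusted p = 0.0809), nor was that of -0.38 without control 1 (adjusted p = 0.148).

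Vwf, the platelet-binding multimer stored in endothelial granules, had levels of -0.38, -1.26, -0.93 and -1.47 in furan livers and -0.71, 0.48, -0.46 and -0.71 in control livers. Furan 1 was above 3 of the 4 controls and control 2 was the highest, so the groups overlapped. The log2 change was -0.66 (-1.40 to 0.08, adjusted p = 0.146), with -0.76 on its second probe, and -0.78 (-1.60 to 0.03, adjusted p = 0.131) without control 1. Platelets and megakaryocytes carry Vwf too. Of 7 tested platelet genes, 2 were lower in furan livers with all arrays, against 16.9% of all features. These were the chemokine Pf4 (log2 change -0.96, adjusted p = 0.0462) and the receptor Treml1 (-0.98, adjusted p = 0.034). The call of Pf4 was lost under 11 of 21 alternatives and that of Treml1 under 10. Without control 1, 3 of the 7 were lower, against 13.5% of all features. The mean level of the platelet list, set to 0 over the controls, ranged from -0.83 to -0.29 in furan livers and from -0.35 to 0.41 in control livers, and its part in the level of Vwf was not tested.

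**Figure D2:**
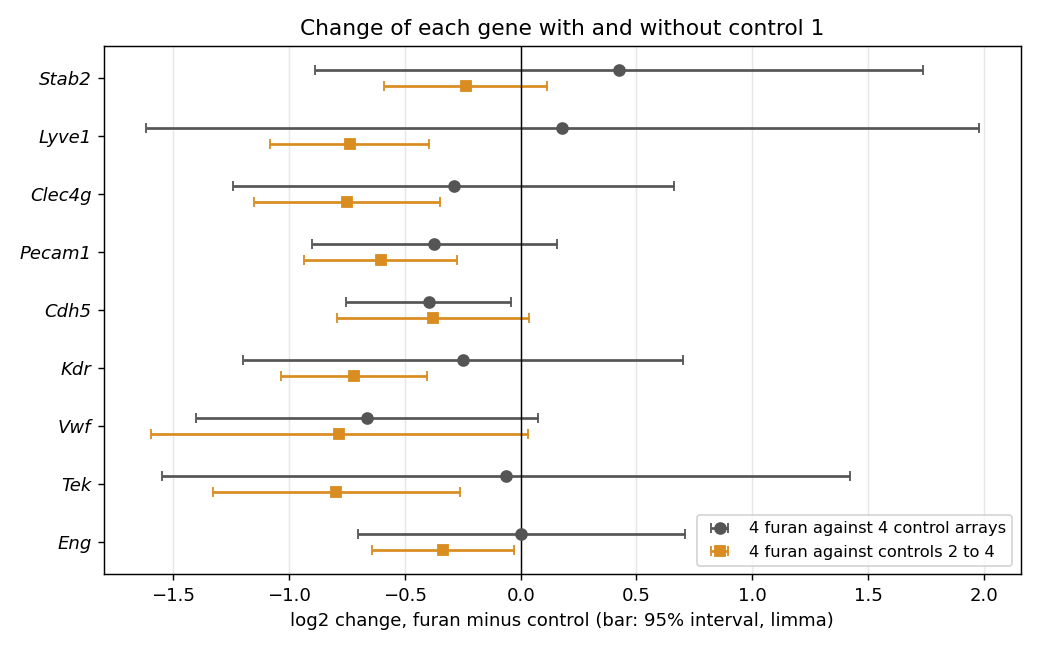
Log2 change of each gene, furan minus control, with its 95% interval from limma, over all 8 arrays (circles) and without control 1 (squares). The intervals of Stab2, Lyve1, Kdr and Tek narrow and move to the left without control 1, and that of Cdh5 hardly moves.

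Slide 2, which holds controls 3 and 4 and furan 3 and 4, gave changes below 0 for all 9 members, from -0.84 for Tek to -0.24 for Cdh5. Slide 1, which holds control 1, gave 1.09 for Stab2, 0.96 for Lyve1 and 0.71 for Tek, against -0.71 for Vwf and -0.55 for Cdh5. Over all features the median change on slide 2 was -0.03, and 845 of 17683 features were called higher and 613 lower. Within slide 2 alone no member was called.

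The sinusoidal genes were then set against the vessel genes on each array, as the mean of Stab2, Lyve1 and Clec4g less the mean of the 6 vessel genes, each gene first set to 0 over its controls. With all 4 controls as the base, the sinusoidal mean differed by 0.10 and the vessel mean by -0.29 in furan livers, a difference of 0.39 (SD 0.17 over 4 furan arrays, against an SD of 0.75 over 4 control arrays). With controls 2 to 4 as the base, the sinusoidal mean differed by -0.58 and the vessel mean by -0.60, a difference of 0.03 (SD 0.17 over 4 furan arrays, against an SD of 0.20 over 3 control arrays). The difference was thus smaller than the SD of the control arrays on both bases, and no test was made on it.

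On that base the sinusoidal mean was -0.66, -0.67, -0.31 and -0.66 on the furan arrays and -0.07, -0.12 and 0.19 on controls 2 to 4. The vessel mean was -0.46, -0.77, -0.50 and -0.68 on the furan arrays and 0.14, -0.14 and 0.00 on the same controls. Control 1 had a sinusoidal mean of -2.72 and a vessel mean of -1.25, so that its difference of -1.47 lay outside those of the 7 other arrays, which ranged from -0.21 to 0.20.

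**Figure D3:**
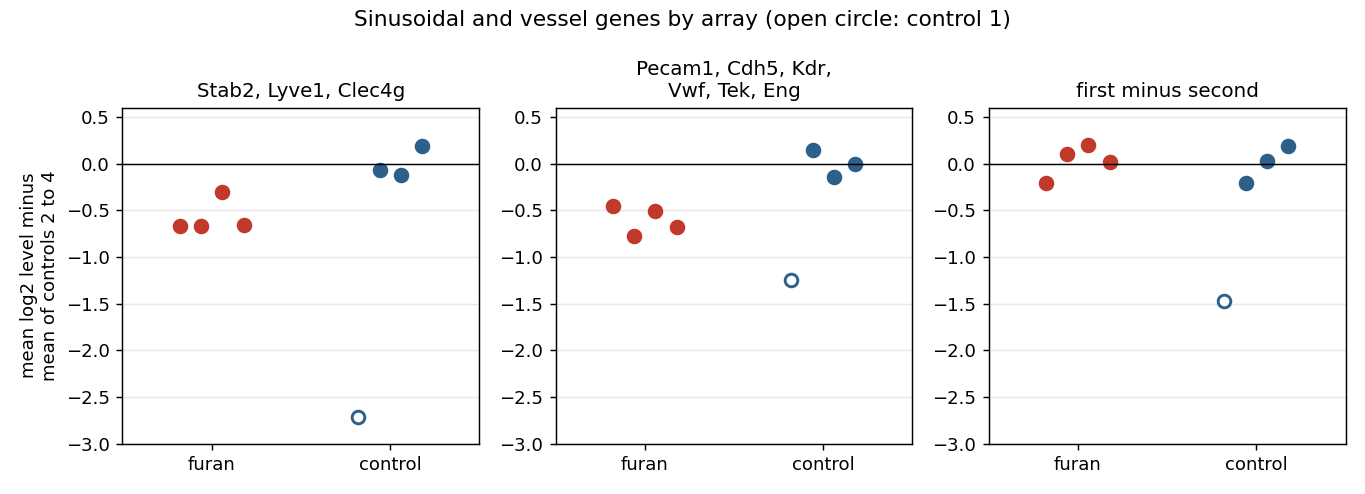
Mean log2 level of the 3 sinusoidal genes, of the 6 vessel genes, and their difference on each array, relative to the mean of controls 2 to 4 (control 1 open). Furan arrays lie below controls 2 to 4 in both sets by similar amounts, and control 1 lies lowest, more so in the sinusoidal set.

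Further sinusoidal genes from a list were counted in the same fit. Of 24 tested, 1 was lower in furan livers with all 8 arrays and none was higher, against 16.9% of all features called lower and 17.3% called higher. The called gene was Rspo3, the R-spondin that supports Wnt signalling around the central vein, with -3.54, -3.90, -3.50 and -3.89 in furan livers and -2.50, -2.62, -2.75 and -3.32 in control livers. It was not low in control 1, and its log2 change was -0.91 (-1.36 to -0.46, adjusted p = 0.00912). Without control 1, 13 of the 24 were called lower, against 13.5% of all features. All 24 changes were below 0, as were 53.3% of all features. The median of the 24 was -0.62, against -0.05 over all features. Control 1 was the lowest of 8 arrays for 18 of the 24, against 14.9% of all features.

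The genes of this list named next were chosen after their values were seen, and their changes are those without control 1 unless stated. Fcgr2b, the inhibitory Fc receptor that clears immune complexes in sinusoids, had levels of 1.74, 1.82, 2.00 and 1.90 in furan livers and -0.41, 2.57, 2.50 and 2.99 in control livers. It had a log2 change of -0.05 with all arrays and -0.82 (adjusted p = 0.00924) without control 1. Clec1b, a C-type lectin, changed by -1.03 (adjusted p = 0.00665), the secreted DNase Dnase1l3 by -0.88 (adjusted p = 0.0108), and thrombomodulin (Thbd), the cofactor of protein C activation, by -1.11 (adjusted p = 0.0305). Bmp2, a signal for hepatic iron control, changed by -0.72 (adjusted p = 0.0207) and the mannose receptor Mrc1, which macrophages express too, by -0.58 (adjusted p = 0.0301). Gata4, a transcription factor of sinusoidal endothelium in mice, was not called (-0.10, adjusted p = 0.586), nor was Wnt2, an angiocrine Wnt ligand (-0.37, adjusted p = 0.252).

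Other pan-endothelial genes had 7 of 37 lower and 1 higher with all 8 arrays, with a median log2 change of -0.28. The share called over all features was 16.9% lower and 17.3% higher, so the count of lower genes was near it. The lower genes were S1pr1 (-1.02, adjusted p = 0.00501), the receptor for sphingosine 1-phosphate, Ptprb (means of -1.39 in furan and -0.39 in control livers, adjusted p = 0.00366), the phosphatase that acts on Tie2 and VE-cadherin, Bcl6b (-1.17, adjusted p = 0.0119), She (-0.76, adjusted p = 0.0171), the ETS factor Erg (-0.57, adjusted p = 0.0281), Sox13 (-0.47, adjusted p = 0.0443) and the tetraspanin Tspan12 (-0.39, adjusted p = 0.0418). Ptprb had levels of -1.41, -1.80, -0.97 and -1.40 in furan livers and -0.46, -0.30, -0.33 and -0.49 in control livers, with no dip in control 1. Cyyr1 was the gene called higher (1.45, adjusted p = 0.0469), and control 1 held its lowest level at -2.78, against -1.15 to -0.46 on the other controls. Without control 1, 18 of 37 were lower and 1 was higher, against 13.5% and 14.6% of all features, and the median was -0.60.

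Genes of continuous or activated endothelium include basement membrane and adhesion genes. Of 25 tested, 4 were lower and 1 was higher with all arrays, against 16.9% of all features lower and 17.3% higher. Without control 1, 5 were lower and 1 was higher, against 13.5% and 14.6%. Both counts with all arrays were near or below the share over all features. Efnb2, the ephrin of arteries, changed by -1.11 (adjusted p = 0.0015) and its venous receptor Ephb4 by -0.51 (adjusted p = 0.00644). The venous transcription factor Nr2f2 changed by -0.70 (adjusted p = 0.00892) and caveolin-2 (Cav2) by -1.55 (adjusted p = 0.0066). The laminin receptor subunit Itga6 was the higher gene with all arrays (0.69, adjusted p = 0.0446) and was not called without control 1 (adjusted p = 0.0778), where the 1 higher gene was the adhesion molecule Icam1 (0.48, adjusted p = 0.0498). For Itga6, the difference with normexp background correction was -0.15 (adjusted p = 0.226). Hepatocytes and other liver cells also express Nr2f2, Cav2 and Itga6.

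**Figure D4:**
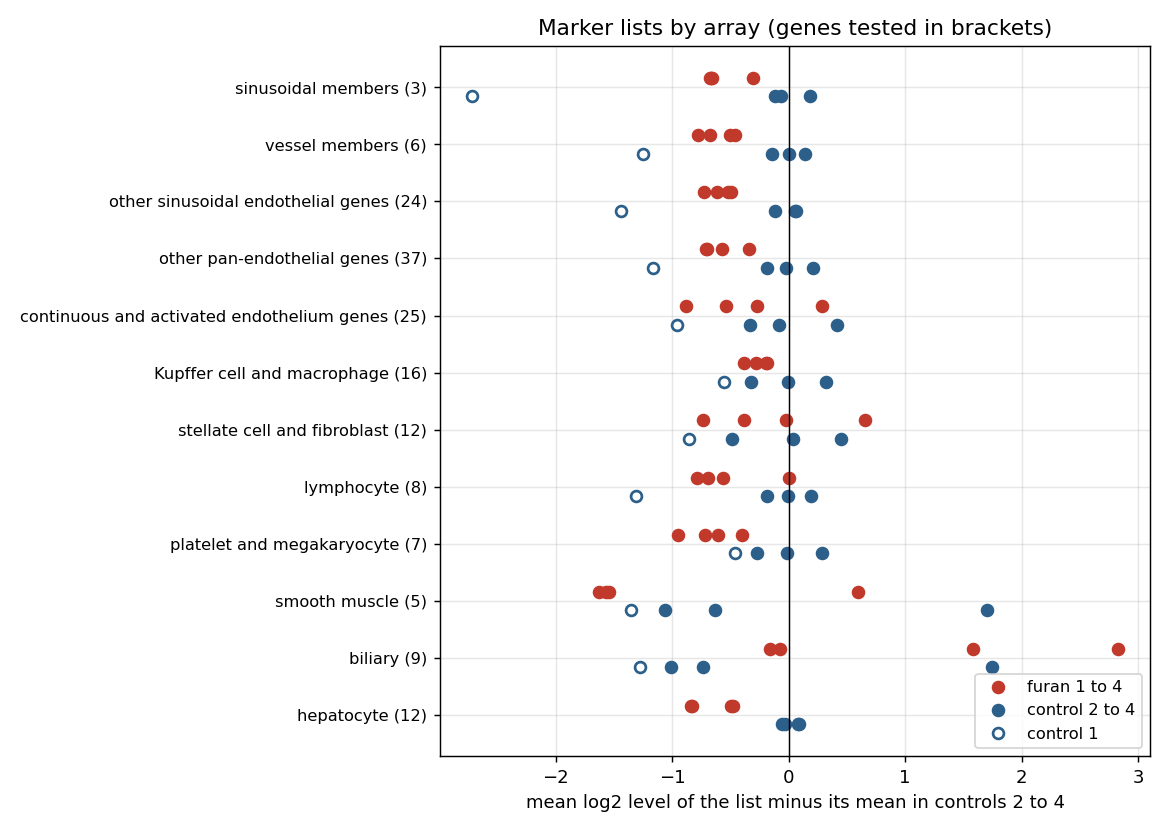
Mean log2 level of each marker list on each array relative to controls 2 to 4, with furan arrays in red, controls in blue and control 1 open. The furan arrays lie below controls 2 to 4 in the sinusoidal, vessel, pan-endothelial, platelet and hepatocyte lists, and control 1 is the lowest array in the first 5 lists, which are endothelial, and in the Kupffer cell, stellate cell, lymphocyte and biliary lists, but not in the platelet, smooth muscle and hepatocyte lists.

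Among ligands, 3 of 17 were lower in furan livers and none was higher, both with all arrays and without control 1. Of all features 16.9% were lower with all arrays and 13.5% without control 1, so the count of ligands was near the share over all features. Vegfa, the main VEGF ligand, which hepatocytes make, had levels of 1.03, 0.90, 1.28 and 1.54 in furan livers and 2.27, 2.30, 2.16 and 2.10 in control livers. The groups were separate, and control 1 was not low. Its log2 change was -1.02 (-1.37 to -0.67, adjusted p = 0.0023). The chemokine Cxcl12 had 3.05, 3.31, 3.74 and 3.76 in furan livers and 5.00, 4.75, 4.45 and 4.72 in control livers (log2 change -1.26, adjusted p = 0.00246). The guidance ligand Slit2 changed by -1.35 (adjusted p = 0.00793), with control 2 well above the other controls. The ligand Angpt2 was not called (0.51, adjusted p = 0.734), with a level of -8.89 in control 1 against -4.37 to -3.99 on the other controls. That level in control 1 was lower than the level of Tek (-7.71), which was not well above background there.

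Among receptors, 5 of 18 were lower and 1 was higher, with all arrays and without control 1 alike in number. The shares over all features were 16.9% lower and 17.3% higher with all arrays, and 13.5% and 14.6% without control 1. Notch1 had the largest change of the list, with -3.37, -2.52, -1.50 and -1.59 in furan livers and 0.53, 0.25, 0.14 and 0.29 in control livers. The groups lay far apart, and furan 1 and 2 were lower than furan 3 and 4 (log2 change -2.55, -3.43 to -1.66, adjusted p = 0.00247). The endothelin receptor Ednra had -4.22, -4.89, -4.56 and -4.47 in furan livers and -3.07, -3.20, -3.32 and -3.16 in control livers (log2 change -1.34, adjusted p = 0.000836).

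The other receptors called lower with all arrays were S1pr1, given above, Acvrl1 and Tgfbr2. The change of Acvrl1, the BMP9 receptor ALK1, was -0.66 (adjusted p = 0.0484) and that of Tgfbr2 was -0.35 (adjusted p = 0.0351). Without control 1, Tgfbr2 was not called (adjusted p = 0.0842), and Flt1 was called lower in its place (-0.68, adjusted p = 0.0446). The netrin receptor Unc5b was higher, with -4.10, -3.92, -3.75 and -4.25 in furan livers and -5.83, -5.84, -5.76 and -6.76 in control livers, a log2 change of 2.04 (1.505 to 2.58, adjusted p = 0.000932). All furan arrays lay above all controls, and with normexp background correction the change was 0.46 (adjusted p = 0.0061). Of 15 target genes of these pathways 1 was lower with all arrays and 2 without control 1, against 16.9% and 13.5% of all features. The gene called with all arrays was the inhibitory SMAD Smad7 (-0.70, adjusted p = 0.0285). Without control 1, Smad7 was not called (adjusted p = 0.0671). The 2 genes called then were Nos3 (-1.04, adjusted p = 0.0432) and Adamts1 (-0.92, adjusted p = 0.0489). The calls of Sox13, Cyyr1, Erg, Itga6, Acvrl1, Tgfbr2 and Smad7 were lost under 10 to 13 of 21 alternatives each. Several of the pathway genes, Notch1, Ednra and Smad7 among them, are expressed outside endothelium.

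**Figure D5:**
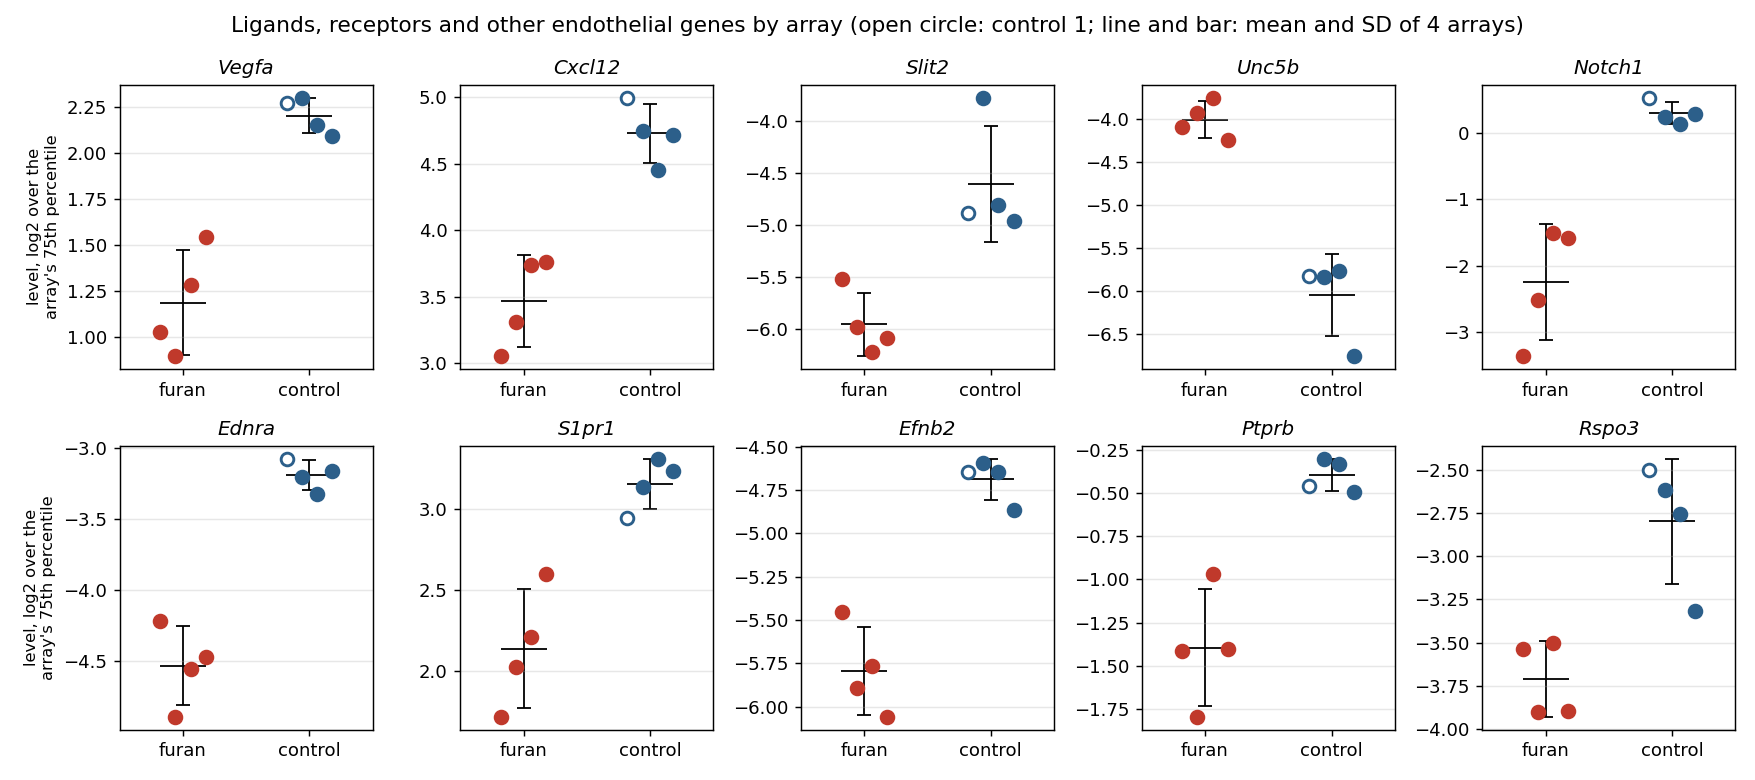
Level of 3 ligands, 4 receptors and 3 other endothelial genes (log2 over the array's 75th percentile) on 4 furan and 4 control arrays, with the mean and SD and control 1 as an open circle. The groups do not overlap in any of the 10 genes, and control 1 is the lowest control in S1pr1 alone.

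Markers of other cell types went in different directions, and their part in the endothelial results was not tested. Over all features, 16.9% were called lower and 17.3% higher with all arrays, and 13.5% and 14.6% without control 1. Of 12 hepatocyte genes 10 were lower with all arrays and 8 without control 1 (medians -0.64 and -0.63). Among them were Apoc3 (-1.13, adjusted p = 0.00421), Hnf4a (-0.98, adjusted p = 0.0074) and Apob (-0.88, adjusted p = 0.0114). The mean of the hepatocyte list ranged from -0.86 to -0.50 in furan livers and from -0.07 to 0.07 in control livers, with control 1 the lowest of 8 arrays in none of the 12. Of 10 proliferation genes all 10 were higher, Rrm2 by 3.42 (adjusted p = 0.00193), Ccna2 by 3.14 (adjusted p = 0.00119) and Aurkb by 3.20 (adjusted p = 0.0024). Aurkb was well above background on 1 of 4 control arrays and, with normexp, differed by 0.27 (adjusted p = 0.109). Of 9 biliary genes 3 were higher, Epcam by 1.79 (adjusted p = 0.00739), Cldn7 by 1.54 (adjusted p = 0.0322) and Sox9 by 0.48 (adjusted p = 0.0213). Without control 1, 1 of the 9 was called higher, and the calls of Cldn7 and Sox9 were each lost under 8 of 21 alternatives. Of 16 Kupffer cell genes none was called with all arrays, Adgre1 having the smallest p (-0.31, adjusted p = 0.15). Without control 1, 15 of the 16 changes were below 0 and 1 was called lower, Mrc1, which is also in the sinusoidal list above. Their mean ranged from -0.24 to -0.04 in furan livers and from -0.42 to 0.46 in control livers.

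None of 12 stellate, 8 lymphocyte or 5 smooth muscle genes was called with all arrays, against 34.2% of all features called in either direction. The smallest p were those of Ngfr (-0.73, adjusted p = 0.111), Ptprc (-0.27, adjusted p = 0.317) and Smtn (-0.40, adjusted p = 0.0974). Of 6 erythroid genes 1 was lower with all arrays, against 16.9% of all features, namely Slc4a1 (-1.14, adjusted p = 0.0191). In control 1, the median distance from the mean of the other controls was -2.64 for the 3 sinusoidal members and -1.14 for the 6 vessel members. It was -1.51 for the further sinusoidal genes, -1.29 for lymphocyte genes, -0.75 for stellate cell genes and -0.40 for Kupffer cell genes. It was 0.13 for hepatocyte genes and 0.04 for all features, while biliary (-1.48) and smooth muscle (-2.01) genes were also high in control 2. All 12 hepatocyte and all 16 Kupffer cell genes were well above background on every array. Fewer genes passed the filter in other lists, 12 of 15 stellate, 8 of 12 lymphocyte and 5 of 8 smooth muscle genes, and 6 of the 8 tested lymphocyte genes were well above background on the lowest control array.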

How the data were processed

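Liver RNA of 8 rats was measured on 1-colour (Cy3) Agilent arrays. Per the file headers and the submitters' processing notes, the authors extracted spots with Agilent Feature Extraction 10.7, and the deposited scanner files hold a background-subtracted processed intensity on a linear scale. The authors' series table holds the same intensity after scaling that brings every array's 75th percentile to 1000, as a comparison with the scanner files showed. From these values log2 levels were computed relative to each array's 75th percentile of 58717 non-control spots. Flagged outlier spots were left out, spots of a probe averaged, and probes kept where every array of the furan group, or every array of the control group, had them well above background. The brightest tested probe stood for a gene. Members were taken by the array's gene name, and other probes were named through accession, symbol or synonym in a RefSeq gene table (23845 of 30367 probes).

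Groups came from the labels, and 4 arrays per group limit the precision. The design text counts 4 rats in each group. Furan and control were compared with limma 3.58.1 in R 4.3.3 (lmFit, eBayes, two-sided), with Benjamini-Hochberg adjustment over all features. The fit was also run on simulated data with known changes and independent noise for each feature. That simulation held no low array shared by many genes, so it does not bear on control 1. The members and lists were chosen with earlier results of these data known. All members were named, with up to 6 called genes in the main direction and 3 in the other per endothelial list and up to 3 per other cell type, or the gene of smallest p. Genes most alike to the sinusoidal members were to be named only if 2 of these 3 were called with all arrays, which was not so. Alternatives were normexp (offset 50), quantile normalization, the series table, probe filters and summaries, an intensity trend, slide, replicate number, and leaving out arrays. Combinations with control 1 left out were chosen after seeing the data.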

Additional observations from a re-analysis of the deposited data

Results flagged for a closer look

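In 16 of 100 groups of 4 arrays, 1 array lay far from the other 3 by Dixon's ratio. For a single group, chance gives about 1 in 20. The groups share the same 8 arrays, and the flagged sinusoidal means include members flagged on their own, so the 16 are not independent. Of the 16, 6 concern member genes and 6 concern control 1. Control 1 had a level of -3.21 for Stab2 (other controls -0.71 to -0.31), -3.51 for Lyve1 (-0.08 to 0.32), -5.45 for Clec4g (-3.75 to -3.48), 2.29 for Kdr (4.04 to 4.24) and -1.94 for Eng (-0.62 to -0.56). Its sinusoidal mean was -2.04, against 0.56 to 0.87 on the other controls. On the furan side, furan 3 stood above the other furan arrays for Clec4g (-3.95, others -4.54 to -4.48) and for the sinusoidal mean (0.37, others 0.01 to 0.02).

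Among the other genes, control 2 was high for Slit2 (-3.78, others -4.96 to -4.81) and Ngfr (-4.66, others -5.42 to -5.40). Control 4 was low for Unc5b (-6.76, others -5.84 to -5.76) and Nr2f2 (-1.67, others -1.19 to -1.10), and high for Rrm2 (-1.19, others -3.37 to -3.01). Furan 1 was high for Itga6 (-4.47, others -4.92 to -4.87) and Erg (-2.20, others -2.41 to -2.37), and furan 4 was low for Cyyr1 (-0.15, others 0.32 to 0.38).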

How the results depend on the processing

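The members' result rests on control 1. With 1 array left out at a time, members called lower numbered 0 to 5, features called lower 1936 to 3011 and higher 2241 to 3017, list genes called lower 14 to 43 and higher 1 to 4, and the sinusoidal minus vessel difference ran from 0.03 to 0.58. Over these fits the change of Stab2 ran from -0.24 to 0.73, of Lyve1 from -0.74 to 0.54, of Eng from -0.34 to 0.12 and of Tek from -0.80 to 0.31, and each turned its sign in at least 1 of them. Without furan 4, Cdh5 alone was called lower.

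Normexp shifted the median of all features to -0.18, against -0.03 as reported, with 31.77% of calls higher, against 50.6%. It gave 6010 of 17683 features called lower and 45 list genes lower (20 as reported). Of the 9 members, 3 were lower (Cdh5, Clec4g and Tek), a share near that over all features. The changes with normexp were -0.0055 for Eng and -0.15 for Itga6. Quantile normalization gave -0.0027 for Eng. Without the filter on dim probes 1 list gene was called higher (3 as reported). Slide 1 alone gave 322 features higher and 219 lower, 1 list gene higher and 3 lower, and changes of 0.13 for Clec4g, 0.053 for Kdr, 0.71 for Tek and 0.031 for Ptprc. Slide 2 alone gave 845 and 613 features, 1 and 11 list genes, and changes of -0.24 for Stab2, -0.60 for Lyve1 and -0.36 for Eng. With fewer arrays per fit, fewer calls are possible. Leaving out control 2 and furan 1 together gave 2320 features lower, 1 member lower (Vwf) and changes of 0.0089 for Kdr and 0.063 for Tek. Where no cause is given, the cause was not tested.

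Added after seeing the data, and all without control 1, members called lower numbered 6 with normexp, 4 with quantile normalization, 6 with slide as a block, 3 without the filter and 3 without control 2. In that order, the change of Stab2 was -0.22, -0.22, -0.21, -0.24 and -0.31, of Lyve1 -0.68, -0.73, -0.72, -0.74 and -0.70, and of Eng -0.30, -0.32, -0.33, -0.34 and -0.36. Leaving out 1 more array gave 2 to 5 members lower, Kdr and Lyve1 in each of the 6 fits. Over these fits Stab2 ran from -0.31 to -0.10, Lyve1 from -0.85 to -0.66, Eng from -0.39 to -0.28 and Tek from -0.93 to -0.60. The share of all features called is not given for the fits of this paragraph, so these member counts stand without a background.

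The replicate numbers were not taken to pair the arrays, since same-numbered deviations correlated at -0.30, 0.12, 0.28 and 0.04. With the replicate number as a block, 2383 features were called higher and 2176 lower, 0 members, and 2 list genes higher and 15 lower. Signal over background limits Tek, the dimmest member.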
